A study of Mus musculus with 79 samples.

Results

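The comparison described here sets muscle of PER2 muscle-knockout mice (PER2 MKO, 4 libraries) against muscle of control mice (PER2 CTRL, genotype given as WT, 3 libraries) at zeitgeber time 8 (ZT8, 8 h after lights on). These are 7 of the 79 libraries of the series, which samples PER2 and RORA muscle knockouts and their controls every 4 h. All 12952 genes of the ZT8 table were taken, and what marks ZT8 was read against the same comparison at ZT0, ZT4, ZT12, ZT16 and ZT20, with 4 MKO and 3 CTRL libraries each (4 CTRL libraries at ZT20). RORA MKO and RORA CTRL (WT) muscle at ZT8, with 3 libraries each, was placed beside it. The labels name neither the muscle, age or sex of the mice nor the promoter, Cre line or deleted exons of either knockout.

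The deposited tables hold comparisons and no value per library, so values per mouse, library depth and libraries that stand apart could not be examined. Each gene has a log2 fold change between MKO and CTRL, a likelihood ratio and a p adjusted by Benjamini-Hochberg over all genes. Every log2 fold change below, and every adjusted p at a single ZT, is the authors' own from these deposited tables. No source used here says which genotype is the numerator. PER2 values are therefore called positive or negative, and neither sign can be read as higher or lower in MKO. The error given with a value (±) was derived by dividing the absolute log2 fold change by the square root of its likelihood ratio, and a gene was called when the adjusted p was under 0.05. The mean log2 CPM of a gene, its level on the scale of counts scaled to library size, is the same in all 6 PER2 tables, so it is an average over the set and not a level at ZT8. Each ZT has its own mice, so time of day cannot be told apart from the mice sampled then. In such bulk tissue, fewer cells of a type and less RNA per cell cannot be told apart.

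PER2 acts in the negative limb of the circadian clock. The activators CLOCK and BMAL1 (gene Arntl) switch on the Per and Cry genes through E-box sequences, and the PER and CRY proteins then inhibit them. REV-ERB proteins (Nr1d1, Nr1d2) repress Arntl and ROR proteins activate it. In skeletal muscle the clock drives daily cycles of transcripts for fuel use and other metabolism, and ZT8 lies in the rest phase of nocturnal mice.

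In the authors' deposited table for ZT8, 230 of 12952 genes (1.78%) were called, 139 positive (1.07%) and 91 negative (0.703%). Their median size was 0.68 on the log2 scale, and 63 had a size of at least 1 (35 positive, 28 negative). The smallest called size was 0.21, the median error of all genes was 0.14, and the median log2 fold change of all genes was -0.01. The count lies between those of the other ZT, which were 350 at ZT0 (2.7%), 1586 at ZT4 (12.2%), 432 at ZT12 (3.34%), 105 at ZT16 (0.811%) and 197 at ZT20 (1.52%) in the authors' deposited tables. Most ZT8 calls recurred. Of the 230 genes, 181 were called at another ZT as well, 44 at each of the 6 ZT (25 positive, 19 negative), and 49 at ZT8 alone (26 positive, 23 negative, 0.378% of all genes). The 230 became 114 at an adjusted p under 0.01, and 117 with the likelihood ratios divided by their inflation of 1.24; the 49 became 15 at an adjusted p under 0.01 at all ZT, and 96 when ZT4 and ZT12 were left out. A single sign at all 6 ZT was found for 197 of the 230 (85.7%), against 18.6% of all genes. Calls at ZT4 held 145 of the 230, or 63.0% of the ZT8 calls and 9.14% of the ZT4 calls, and calls at ZT16 held 62, or 27.0% of the ZT8 calls and 59.0% of the ZT16 calls.

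**Figure D1:**
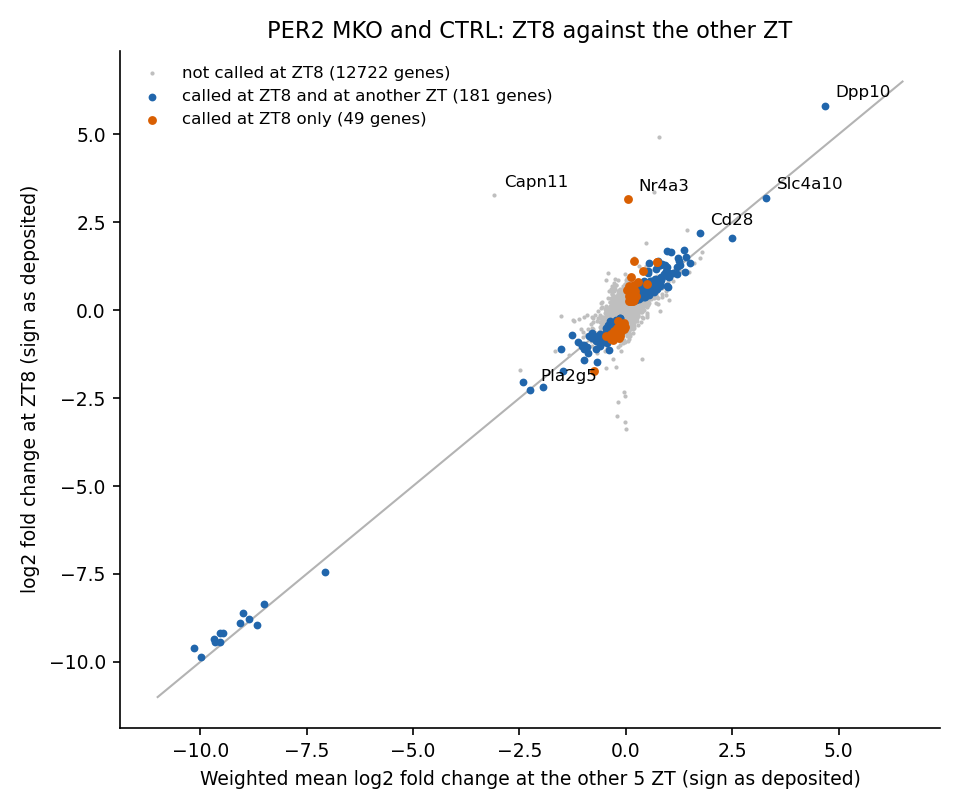
Log2 fold change between PER2 MKO and CTRL at ZT8 (vertical) against the error-weighted mean at the other 5 ZT (horizontal), 1 point per gene, with the sign as deposited and the line of equality. Genes called at another ZT too (blue) lie along the line, while the 49 called at ZT8 only (orange) lie farther from 0 at ZT8, and Nr4a3 and Capn11 are far above it.

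The targeted gene was examined first. In the authors' deposited tables Per2 stood at -0.16, 0.46, 0.51, 0.70, 0.38 and 0.31 from ZT0 to ZT20. At ZT8 its error was 0.22 and its adjusted p 0.302, so it was not called there, and the labels were not checked by it. ZT12 was the only time at which Per2 passed (adjusted p 0.0418). A gene-level value also counts transcripts that lack a deleted part, so it does not fix the direction either. Rora, the gene removed in the other knockout, was at 0.17 ± 0.11 at ZT8 in the authors' deposited table (adjusted p 0.662), and it passed only at ZT12 too, at 0.37 (adjusted p 0.0397).

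Among clock genes 3 were called at ZT8, against 1.78% of all genes. Of 6 clock activators, Arntl2, a paralog of Arntl, was at -0.60 ± 0.17 in the authors' deposited table (adjusted p 0.0373). Of 12 clock repressors, Bhlhe41 (DEC2, a repressor that binds E-boxes) was at 0.41 ± 0.12 (adjusted p 0.0366). Of 13 clock output factors, Cdkn1a, which encodes the cell cycle inhibitor p21, was at 0.94 ± 0.21 (adjusted p 0.00139). All 3 were called at ZT8 alone. In the core loop and its outputs, none of the following was called in the authors' deposited table. Arntl was at -0.04 ± 0.17 and Clock at 0.20 ± 0.13. Per1 was at 0.55 ± 0.28 and Per3 at -0.16 ± 0.19. Cry1 was at 0.16 ± 0.09, Nr1d1 at 0.19 ± 0.18 and Dbp, a clock-controlled transcription factor, at 0.16 ± 0.22. Counting Per2 and Bhlhe41, 11 of the 12 repressors were above 0, with a list median of 0.15 at ZT8 and between -0.01 and 0.25 at the other ZT.

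Of the genes called at ZT8 alone, Nr4a3, an orphan nuclear receptor induced in muscle by exercise and adrenergic signals, had the highest positive value of all called genes above 1 CPM. In the authors' deposited tables it stood at 1.28, 0.44, 3.15, -0.52, -0.64 and -0.36 from ZT0 to ZT20, with an error of 0.69 and an adjusted p of 0.00121 at ZT8. No other ZT came within 1 log2 unit of the ZT8 value. Cdkn1a was at 0.05, 0.18, 0.94, 0.30, 0.21 and -0.07 over the same ZT. Slc25a25, a mitochondrial carrier of ATP-Mg and phosphate, was at 0.27, 0.13, 1.39, 0.11, 0.63 and -0.16 (ZT8 error 0.41, adjusted p 0.0415). Slc16a3, the lactate exporter MCT4, was at 0.34, 0.07, 0.62, -0.03, 0.12 and 0.17 (ZT8 error 0.16, adjusted p 0.0104). These 4 genes had their highest value at ZT8, which choosing them by a call at ZT8 alone favours.

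Ppargc1a, the transcriptional coactivator PGC-1α that promotes mitochondrial gene expression, stood at 0.11, 0.30, 0.62, 0.18, -0.09 and 0.20 from ZT0 to ZT20 in the authors' deposited tables (ZT8 error 0.16, adjusted p 0.0123). Ppp1r15a (GADD34), a stress-induced phosphatase subunit that lets translation resume, was at -0.04, 0.14, 0.57, -0.04, 0.01 and 0.04 (ZT8 error 0.15, adjusted p 0.0159), and was chosen after its values were seen. Also among the positive genes of smallest adjusted p at ZT8 alone were 3 others in the authors' deposited table. Clcn4-2, a chloride and proton exchanger, was at 0.55 ± 0.14. Cldn25, of the claudin family, was at 0.31 ± 0.08. Foxk2, a forkhead transcription factor, was at 0.26 ± 0.07.

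**Figure D2:**
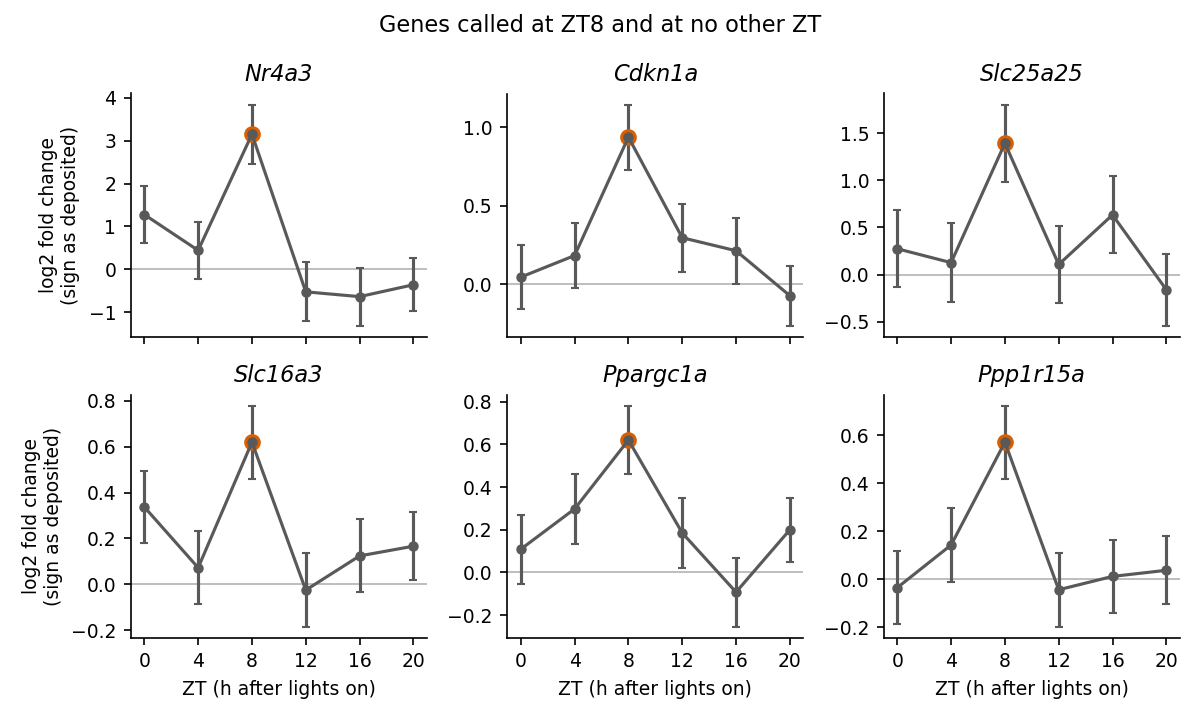
Log2 fold change between PER2 MKO and CTRL (vertical, sign as deposited) against ZT in hours (horizontal) for 6 genes called at ZT8 and at no other ZT; bars are the derived error of each value and the orange point is ZT8. The ZT8 value is the highest in each panel, at 3.15 for Nr4a3 and 0.57 for Ppp1r15a. Choosing genes by a call at ZT8 alone favours this.

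On the negative side, the genes called at ZT8 alone with the smallest adjusted p were smaller in size than Nr4a3. The zinc finger genes Zik1 and Zfp442 were at -0.79 ± 0.18 and -0.86 ± 0.23 in the authors' deposited table for ZT8. Pold3, a subunit of DNA polymerase delta, was at 0.02, -0.15, -0.48, 0.12, -0.01 and -0.09 from ZT0 to ZT20, with a ZT8 error of 0.12. Esr1, the estrogen receptor alpha, was at -0.32, -0.24, -0.56, -0.15, -0.14 and -0.14, with a ZT8 error of 0.15. Scai, a regulator of transcription and cell migration, was at -0.49 ± 0.12, and Oplah, the 5-oxoprolinase of glutathione turnover, at -0.39 ± 0.10 at ZT8. Pold3 was near 0 at the other ZT, whereas Esr1 was negative at each of them.

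A call at 1 ZT does not show that the effect differs from that at the others, so the ZT8 value was tested against the error-weighted mean of the other 5 ZT (two-sided normal p, adjusted over all 12952 genes). One gene passed (0.00772% of those tested). The same test passed 5 genes at ZT0, 5 at ZT4, 0 at ZT12, 0 at ZT16 and 1 at ZT20. At an unadjusted p under 0.05 it held 426 genes at ZT8 (3.29%). That share is below the 0.05 that such a threshold holds when no gene differs and the derived errors are right. Whether these errors are too large was not tested. The count thus does not show an excess at ZT8 and cannot show that there is none. At the other ZT, in order from ZT0 to ZT20, the test held 1015, 2148, 506, 523 and 329 genes. The gene at ZT8 was Capn11, a calpain protease known mainly from testis, which is scarce here with a mean log2 CPM of -0.82. In the authors' deposited tables it stood at -5.63, -0.30, 3.26, -4.41, -4.68 and -2.66 from ZT0 to ZT20, with errors between 1.16 and 1.51, and it was not called at ZT8 itself (adjusted p 0.186). It was positive at ZT8 and negative at the other 5 ZT, and the difference was 6.37 ± 1.36 (adjusted p 0.0364). Nr4a3 came next at 3.11 ± 0.75, with an unadjusted p of 3.49e-05 and an adjusted p of 0.226, so it did not pass. Without ZT0, without ZT12 or without ZT16, and among genes with a mean log2 CPM of at least 1, the test passed 0 genes.

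Among the 49 genes called at ZT8 alone, 31 had an unadjusted p under 0.05 for this difference and none an adjusted p under 0.05. The 49 were chosen by their calls at ZT8, which favours a small unadjusted p here. The difference was 0.81 ± 0.23 for Cdkn1a, 1.21 ± 0.45 for Slc25a25, 0.48 ± 0.17 for Slc16a3, 0.48 ± 0.18 for Ppargc1a and -0.46 ± 0.13 for Pold3. For Bhlhe41 it was 0.18 ± 0.13 (unadjusted p 0.163). All 49 lay outside the range of their other 5 values, which held for 27.9% of all genes, and the choice by calls favours such values. Of the 49, 26 (53.1%) kept 1 sign at all 6 ZT. The median of the 26 positive genes was 0.56 at ZT8 and between 0.10 and 0.24 at the other ZT.

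Of the promoters of these genes, those of Nr4a3 and Ppp1r15a are shown because they hold copies of the cAMP response element (CRE), the site bound by CREB-family factors, in genes called at ZT8 alone, and that of Capn11 as the gene that differed at ZT8. Each line gives the 250 bases before the annotated start, 5′ to 3′ on the gene's strand, from RefSeq on GRCm38.p6. Capitals mark the core of the element, TGACG, or the reverse complement CGTCA, and the full element TGACGTCA. The Nr4a3 stretch lies at chr4:48045055-48045304 on the plus strand and the Ppp1r15a stretch at chr7:45526269-45526518 on the minus strand, and the Capn11 stretch at chr17:45659310-45659559 on the minus strand. Nr4a3 and Ppp1r15a were chosen after their values were seen, whereas the rule set for promoters covered only genes with a passed ZT8 difference. As they were chosen for holding the element, its presence in them was fixed by the choice.
Nr4a3: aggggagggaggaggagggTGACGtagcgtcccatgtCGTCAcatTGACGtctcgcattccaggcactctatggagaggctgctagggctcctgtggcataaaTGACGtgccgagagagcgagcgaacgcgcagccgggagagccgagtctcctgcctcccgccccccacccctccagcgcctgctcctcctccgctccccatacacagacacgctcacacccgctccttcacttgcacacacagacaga
Ppp1r15a: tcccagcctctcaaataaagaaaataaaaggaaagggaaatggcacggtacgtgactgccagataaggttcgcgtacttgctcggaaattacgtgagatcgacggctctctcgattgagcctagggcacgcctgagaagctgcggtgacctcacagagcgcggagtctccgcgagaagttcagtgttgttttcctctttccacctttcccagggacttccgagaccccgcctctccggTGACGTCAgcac
Capn11: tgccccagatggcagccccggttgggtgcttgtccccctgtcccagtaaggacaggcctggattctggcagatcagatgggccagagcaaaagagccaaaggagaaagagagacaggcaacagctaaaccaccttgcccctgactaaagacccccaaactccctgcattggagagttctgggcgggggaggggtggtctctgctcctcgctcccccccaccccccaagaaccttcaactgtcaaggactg

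The Nr4a3 stretch holds 4 cores and the Ppp1r15a stretch 1 full element, in which 2 cores overlap on opposite strands. The same window of Ppargc1a holds 1 core and the Capn11 stretch none. Over both strands, TGACG was found in 6 of the 17 positive and 2 of the 18 negative ZT8-alone genes with a promoter entry, against 27.1% of the genes of the tables and 17.9% of all promoters. TGACGTCA, which contains TGACG, was found in 2 of 17 and 0 of 18, against 2.73% and 1.62%. The E-box CACGTG was found in 2 of 17 and 3 of 18, against 8.61% and 6.05%. A match is a description of these letters and not a bound site.

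The immediate early and NR4A list, genes transcribed within minutes of a stimulus, was described over all its 17 measured members. In the authors' deposited table for ZT8, 1 was called (Nr4a3), 14 were above 0 and 3 below, with a median of 0.34. The median at the other ZT lay between -0.46 at ZT12 and 0.28 at ZT16. Members not called at ZT8, chosen after their values were seen, were Atf3 at 1.48 ± 0.49 (adjusted p 0.0991), Nr4a1 at 0.51 ± 0.17 (adjusted p 0.0930), Fos at 0.94 ± 0.54 and Nr4a2 at 0.50 ± 0.33. Fos was at -1.01 at ZT12. Of 14 glucocorticoid-responsive genes, Cdkn1a was called and 11 were above 0, with a median of 0.17.

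Among called genes above 1 CPM with no predicted name, 14 of the 8 highest and 8 lowest at ZT8 were called at another ZT as well. After Nr4a3, the highest of these genes in the authors' deposited table for ZT8 were Cd28, a T-cell costimulatory receptor, at 2.20 ± 0.36 and Syt9, a synaptotagmin of vesicle release, at 1.70 ± 0.50. Tpx2, a spindle assembly factor, was at 1.52 ± 0.27. Snph, which anchors mitochondria to microtubules, was at 1.48 ± 0.21. Atp13a5, a P5-type ATPase, was at 1.41 ± 0.22, Kif26b, a kinesin family member, at 1.40 ± 0.37, and Slc25a25 was the eighth. Tpx2, Snph and Atp13a5 were called at all 6 ZT. Over the 6 ZT, Tpx2 ran from 1.06 to 1.92, Atp13a5 from 1.02 to 1.62 and Snph from 1.03 to 1.48.

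The lowest called gene above 1 CPM with no predicted name in the authors' deposited table for ZT8 was Pla2g5, a secreted phospholipase, at -2.26 ± 0.37, with values from -3.25 to -1.70 at the other ZT. Actc1, the cardiac actin also made in developing muscle, was at -2.18 ± 0.47 and Mcm6, a subunit of the replication helicase, at -1.74 ± 0.30. Angptl4, an inhibitor of lipoprotein lipase, was at -1.48 ± 0.44 with an adjusted p of 0.04997, and it was at 0.20 at ZT0. Fam174b was at -1.41 ± 0.34 and Fgf11, an intracellular fibroblast growth factor homologue, at -1.21 ± 0.34. Prkcz, the atypical protein kinase C zeta, was at -1.13 ± 0.25 and Fam83g at -1.09 ± 0.26. Prkcz was called at ZT4 and ZT8 and lay between -0.35 and -0.09 at the other ZT, with a ZT8 difference of -0.73 ± 0.28 (unadjusted p 0.00802).

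**Figure D3:**
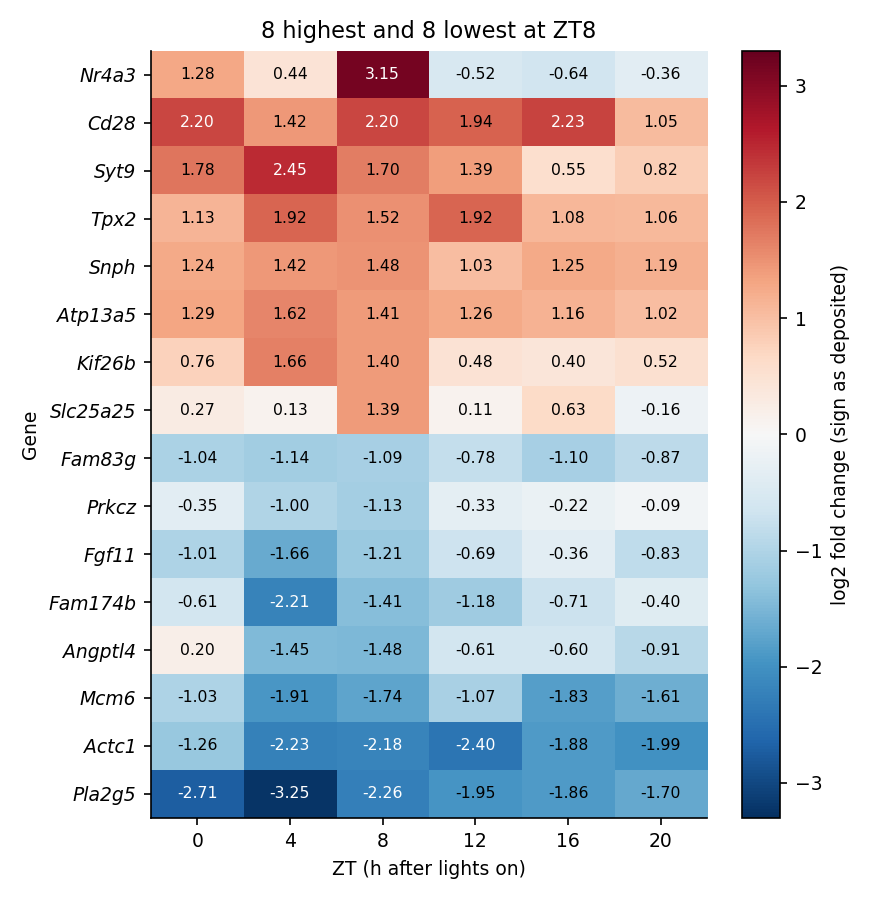
Log2 fold change between PER2 MKO and CTRL (colour and printed value, sign as deposited) at the 6 ZT (columns) for the 8 highest and 8 lowest genes called at ZT8 above 1 CPM and with no predicted name (rows). Most rows keep 1 colour over the day; Nr4a3 and Slc25a25 are strongly coloured at ZT8 and paler at the other ZT.

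Other genes called at all 6 ZT were chosen after their values were seen. Dmd, which encodes dystrophin, was at 0.76 ± 0.13 at ZT8 and between 0.51 and 0.77 at the other ZT in the authors' deposited tables. Pde7a, a cAMP phosphodiesterase, was at 1.01 ± 0.16 and Itga4, the integrin alpha 4 chain, at 1.04 ± 0.16. Below 1 CPM, Dpp10, an auxiliary subunit of potassium channels, was at 5.81 ± 1.04 and Slc4a10, a sodium bicarbonate transporter, at 3.20 ± 0.40. The only values below -5 at ZT8 belonged to 13 genes with predicted names, among them Gm10800 and Gm10801, which ran from -9.85 to -7.45 and were called at all 6 ZT. In the mouse GENCODE annotation vM21, 10 of the 13 lie on chromosome 9, and a median of 76.8% of the 31-base words of their transcripts occur in another of the 13 (36.2% to 94.4%). Their reads can thus be split between copies, and the 13 values are not 13 separate measurements.

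Over 517 genes of 29 pathway lists, 19 were called at ZT8 in the authors' deposited table (3.68%, against 1.78% of all genes), 12 positive and 7 negative, with a median of -0.01, and 13 lists held none. In polyamine metabolism 2 of 11 genes were called, both positive. Odc1, the rate-limiting ornithine decarboxylase, was at 0.94 ± 0.24 and Sms, spermine synthase, at 0.58 ± 0.13. Smox, spermine oxidase, was at 0.76 ± 0.23 and missed the threshold (adjusted p 0.0524). Both called genes were called at other ZT too, and Odc1 was at 1.40, 0.88, 0.94, 1.36, 0.29 and 1.15 from ZT0 to ZT20.

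In muscle structure lists, Musk, the receptor kinase that organises the neuromuscular junction, was the 1 called gene of 13 in its list, at 1.08 ± 0.23 at ZT8 and called at all 6 ZT in the authors' deposited tables. Eya1, a transcriptional coactivator of muscle development, was at 0.43 ± 0.12, and it and Actc1 were the 2 called of 20 myogenic and fetal sarcomere genes. Asph, whose locus also encodes the calcium release protein junctin, was at 0.30 ± 0.09, the 1 called of 17 excitation-contraction coupling genes. None of 16 fast and 14 slow sarcomere genes was called; Sln, the calcium pump inhibitor sarcolipin in the slow list, was at 1.90 ± 0.58 (adjusted p 0.0543). Npnt, a ligand of integrin alpha 8, was at 1.33 ± 0.28, and 19 of the 22 extracellular matrix genes were below 0, with a median of -0.20 at ZT8 and between -0.10 and 0.12 at the other ZT. The fibroblast markers, given beside them, had a median of -0.10 at ZT8 with 10 of 12 below 0 and none called, and their part in the matrix values was not tested.

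Among lipid genes, 23 of 24 fatty acid oxidation genes were below 0 at ZT8 in the authors' deposited table and none was called, with a median of -0.22 and 11 at an unadjusted p under 0.05. Over all 12952 genes, 6732 were below 0 at ZT8 and 1411 had an unadjusted p under 0.05. The median of the fatty acid oxidation list at the other ZT was between -0.30 at ZT4 and 0.03 at ZT0. Pdk4, the kinase that turns off pyruvate dehydrogenase, was at -1.17 ± 0.43 (adjusted p 0.175) and Decr1, a reductase of unsaturated fatty acid oxidation, at -0.34 ± 0.10 (adjusted p 0.0560). In lipid uptake and storage 17 of 19 were below 0 and 2 were called, Angptl4 and Plin3, a lipid droplet coat protein, which was at -0.73 ± 0.21. Scd2, a stearoyl-CoA desaturase, was at -0.82 ± 0.24, the 1 called of 20 lipid synthesis genes. Ppargc1a was positive at ZT8 while 22 of 28 oxidative phosphorylation genes were below 0, with a median of -0.08 and none called. Pcx, the anaplerotic pyruvate carboxylase, was at 0.42 ± 0.13, and Gpx3, the secreted glutathione peroxidase, at -0.79 ± 0.16.

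All 22 measured interferon response and antigen presentation genes were below 0 at ZT8 in the authors' deposited table, with a median of -0.37, none called and 12 at an unadjusted p under 0.05. Over all 12952 genes, 6732 were below 0 at ZT8 and 1411 had an unadjusted p under 0.05. The interferon list median at the other ZT lay between -0.26 and -0.03, so ZT8 was the lowest of the 6. Negative medians were thus not particular to ZT8, with -0.25 at ZT4, where 5 of the 22 were called, and -0.26 at ZT16. Irf9, a subunit of the interferon-activated factor ISGF3, was at -0.40 ± 0.13 (adjusted p 0.0857) and H2-K1, a class I antigen-presenting molecule, at -0.46 ± 0.16 (adjusted p 0.115). Beside them, 9 of 11 macrophage markers were below 0 with a median of -0.11, and 11 of 12 endothelial markers with a median of -0.17, none called in either list. The part of these cells in the interferon values was not tested. All 12 skeletal muscle fibre markers were measured, with a median of -0.01 and none called. The 6 red blood cell markers had medians of -0.13, -1.32, -0.29, -0.99, 0.06 and -0.20 from ZT0 to ZT20. Of 106 measured cell type markers 3 were called (2.83%, against 1.78% of all genes). They were Cd28, Ppargc1a (in the brown adipocyte list) and Car3, a carbonic anhydrase of slow muscle and adipocytes, at -0.996 ± 0.18. Cd28 was the only measured member of the 10 in its T and natural killer cell list. Car3 was negative, while 6 of the 10 white adipocyte markers were above 0, with a list median of 0.18. Of the 4 measured brown adipocyte markers, 2 were above 0 and 2 below.

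**Figure D4:**
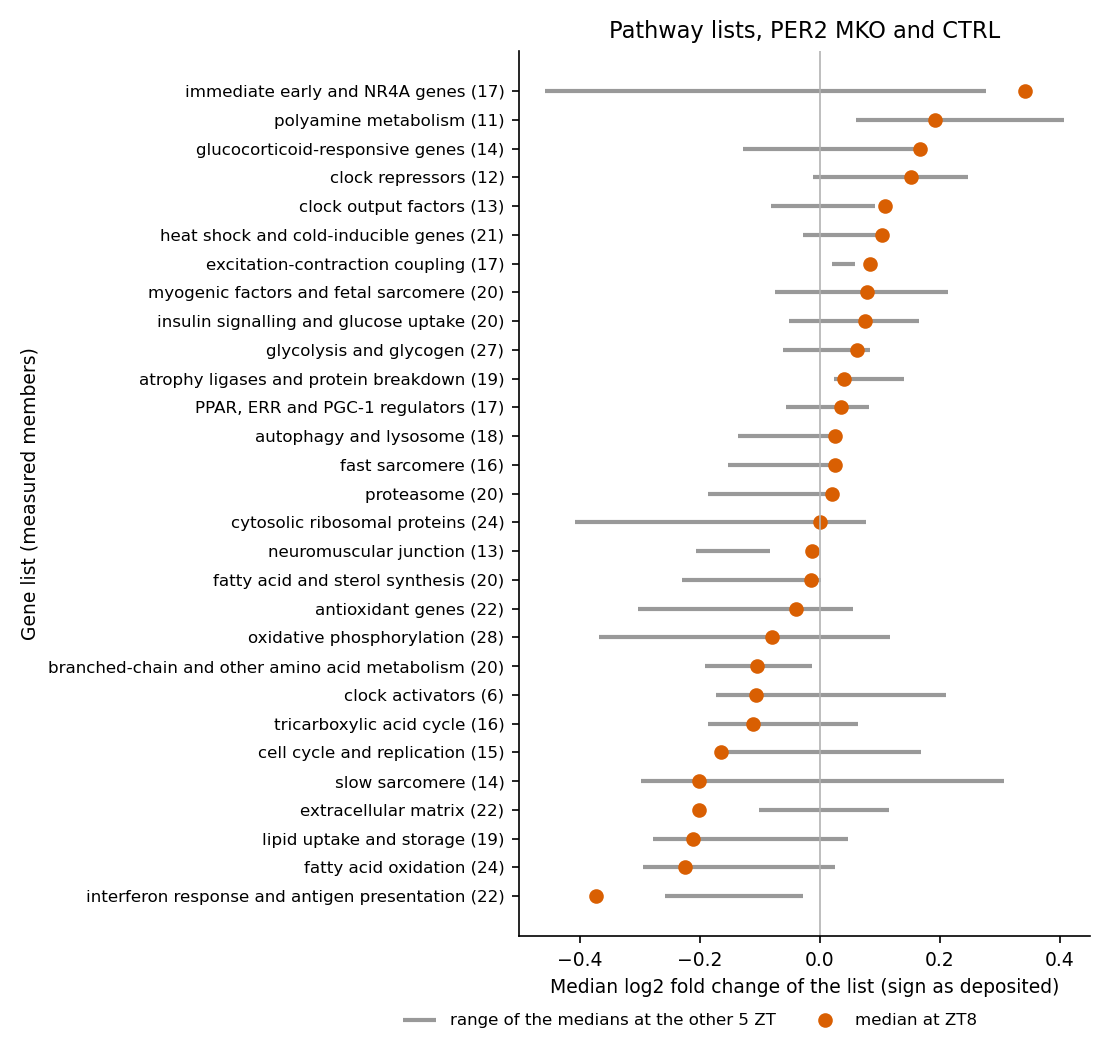
Median log2 fold change between PER2 MKO and CTRL (horizontal, sign as deposited) of the 29 pathway lists (rows, measured members in brackets) at ZT8 (orange points), with the range of the medians at the other 5 ZT (grey bars). The immediate early list has the highest median at ZT8 (0.34) and the interferon list the lowest (-0.37). Both lie outside their bars, but so do other lists, among them extracellular matrix and neuromuscular junction, so this does not set them apart.

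The ZT8 calls were last placed beside RORA MKO over RORA CTRL at ZT8, whose direction is given by the labels. RORα is the nuclear receptor that activates Arntl. By symbol 188 of the 230 genes were in that table, and 134 (71.3%) were called there, against 30.8% of the 11328 shared genes; the 134 are 3.84% of the RORA calls among the shared genes. The deposited signs were opposite for 118 of the 134 (88.1%) and alike for 16, while opposite signs held for 72.7% of all shared genes called in RORA. Since the PER2 numerator is not known, opposite signs cannot be read as opposite effects.

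Cd28 was at 2.20 in the PER2 and -1.42 ± 0.19 in the RORA comparison of the authors' deposited tables, and Odc1 at 0.94 and -1.41 ± 0.11. Plin3 was at -0.73 in the PER2 and 1.40 ± 0.07 in the RORA comparison, and Actc1 at -2.18 and 0.99 ± 0.22. The 16 with like signs included Pla2g5, at -2.26 in PER2 and -2.86 ± 0.32 in RORA. They also included Slc25a25 at 1.39 and 1.44 ± 0.25, Ppargc1a at 0.62 and 0.21 ± 0.07, and Nr4a3 at 3.15 and 0.59 ± 0.42 (RORA adjusted p 0.00616). The RORA error of Nr4a3 is wide for that p, which is also the authors' own. Other RORA errors were wide too, as for Angptl4 at 0.33 ± 0.35 (RORA adjusted p 0.0375) and Kcnq1 at 0.64 ± 0.38 (RORA adjusted p 0.00333). No source used here says how the RORA fold changes were estimated, so their sizes may not be on the scale of the PER2 values. Cdkn1a was at 0.94 in PER2 and 0.04 ± 0.11 in RORA, where it was not called. Of the 49 genes called at ZT8 alone in PER2, 23 were called in RORA, 4 of them with a like sign. How many of the 49 were measured in RORA was not counted. Of all ZT8 calls measured there, 71.3% were called in RORA, against 30.8% of the shared genes. Over all ZT8 calls a like sign held for 16 of 134. The 4 were Nr4a3, Slc25a25, Ppargc1a and Lrp11, a member of the LDL receptor-related family. Of others called at ZT8 alone, Slc16a3 was at 0.62 and -0.49 ± 0.07 and Ppp1r15a at 0.57 and -0.41 ± 0.08.

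**Figure D5:**
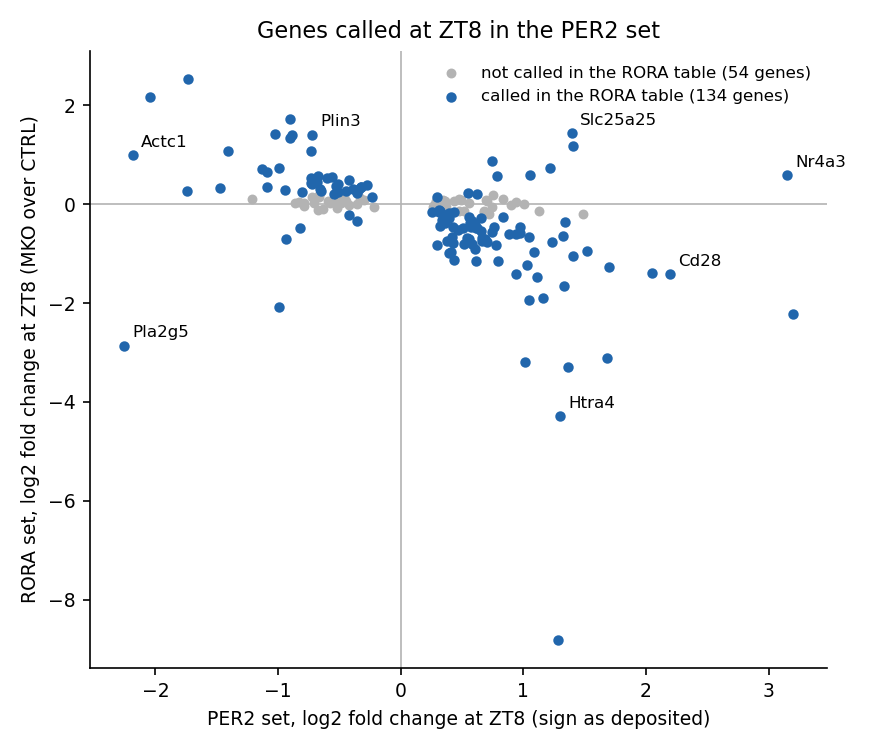
Log2 fold change at ZT8 for RORA MKO over RORA CTRL (vertical) against PER2 MKO and CTRL (horizontal, sign as deposited) for the 188 genes called in PER2 and present in both tables; blue points were called in RORA too. Most blue points lie in the quadrants of opposite sign, and Pla2g5, Slc25a25 and Nr4a3 are exceptions.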

How the data were processed

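Mouse muscle RNA was sequenced from stranded poly-A libraries, per the labels' protocols. Per the submitters' processing notes, STAR and Trimmomatic, DESeq2, MultiQC, bcl2fastq 2.20.0.422 and R 4.1 were used, and both mm9 and GRCm39 are listed as builds without saying for what; for the read counter and the program behind the PER2 tables, neither labels nor headers give a name. Per the file headers, each PER2 table holds a likelihood ratio score, the log2 fold change it tests, p-value and adjusted p, and the gene's mean log2 CPM, and the RORA table a mean normalized count as signal, a log2 fold change with its error and p-values. The RORA table was filtered at 10 reads in 3 samples, per the labels. Library depth is unknown. As no counts per library were at hand, the authors' deposited tests were used. Benjamini-Hochberg adjustment of the deposited PER2 p-values at ZT8 gave back the adjusted p there (largest difference 9.0e-15). The same was not checked at the other 5 ZT.

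Errors, the difference of ZT8 from the other 5 ZT, list counts and medians were computed under Python 3.11.15. SciPy 1.17.1, pandas 2.3.3 and NumPy 2.4.6 were used, and figures were drawn with matplotlib 3.10.9. The test of the difference was tried on simulated data. These had normal noise of the derived errors around effects held constant over ZT, apart from shifts added at ZT8. Such data cannot show whether the derived errors hold in the real data. limma 3.58.1 in R 4.3.3 served 1 of 16 alternatives set in advance, and 5 were added after the calls at ZT8 alone had been seen. RefSeq (GRCm38.p6, 11932 of 12952 symbols matched) gave names, chromosomes and promoters.

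The comparison, the gene lists and the rule for named genes were chosen with earlier results of these data known. The rule takes Per2, Rora and called clock genes; the 8 highest and 8 lowest calls with a mean log2 CPM of at least 0 and no predicted name; the 6 smallest adjusted p of each sign among genes called at ZT8 alone; up to 3 called members of each pathway list and 2 of each cell type list; and ZT8 differences that passed at that level, of which there were none. Capn11 lies below that level. Genes given as members of a list that were not called lie outside the rule and were chosen after their values were seen. p-values rest on the spread between sampled mice, 3 to 4 a group per the series' design. The mean log2 CPM is shared by all 6 ZT, and over which libraries the spread was estimated is not stated. The spread behind a ZT8 p-value may thus not be that of the mice sampled at ZT8 alone.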

Additional observations from a re-analysis of the deposited data

Results flagged for a closer look

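Capn11 was the one gene whose ZT8 value differed from the other 5 ZT past the threshold, by 6.37 ± 1.36 on the log2 scale (adjusted p 0.0364). The authors' deposited tables list it at 3.26 at ZT8 and between -5.63 and -0.30 at the other ZT. Its mean log2 CPM was -0.82, so it was scarce, and no value per library was at hand to show whether 1 library carries it.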

How the results depend on the processing

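Of the 230 calls at ZT8, the count was 117 with the likelihood ratio divided by its inflation (1.24) and 114 at an adjusted p under 0.01; it was 196 with a mean log2 CPM of at least 1, 235 after recentring and 159 with a size of at least 0.5. The 1 gene that differed at ZT8, Capn11, became 0 with a mean log2 CPM of at least 1, without ZT0, without ZT12, without ZT16, with limma and with errors scaled by inflation. The 19 pathway list calls became 10 at an adjusted p under 0.01. The 49 calls at ZT8 alone became 15 at an adjusted p under 0.01 at all 6 ZT and 96 without ZT4 and ZT12, and 38, 35 and 53 under the filter, the inflation and the recentring, in settings added after the data were seen. No value changed sign. No paired analysis was possible because the tables hold no value per library, and for the same reason no library could be left out and whether 1 library carries a result was not tested.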
